A study of Homo sapiens with 8 samples.

Results

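The 56 genes described here encode heterogeneous nuclear ribonucleoproteins (hnRNPs), proteins of the core spliceosome and proteins of nuclear speckles. They were taken from a list of gene symbols matched to the Ensembl identifiers of a count table of 63140 genes. The rule uses no measured value and leaves out the SRSF genes, but the list was drawn up with earlier results of these data known. All 56 were found and all 56 were abundant enough to be tested. By role they comprised 20 hnRNP genes, 14 genes that act at the 3′ splice site or in the U2 particle, 5 genes of the U1 particle and the LUC7 family, 4 genes of the Sm ring, 6 genes of the U4/U6.U5 tri-snRNP and 7 speckle and regulator genes.

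The counts come from ChIRP (chromatin isolation by RNA purification), a pull-down with biotinylated probes and streptavidin beads from cross-linked, sonicated lysate. It covers 8 libraries of established human acute myeloid leukaemia lines, collected on day 3 after editing, with 4 groups of 2. AAVS1 KO and HOTSCRAMBL KO received Cas9 ribonucleoprotein, which cuts DNA, and AAVS1 CBE and HOTSCRAMBL CBE received a cytosine base editor, an enzyme for C-to-T changes that leaves the DNA without a double-strand cut. The guides targeted either HOTSCRAMBL, a long non-coding RNA, or AAVS1, which is the control site for each editor, and in every group replicate 1 is labelled MOLM13 and replicate 2 OCI-AML4. All groups therefore received an editor, and the labels name no clone and give no share of edited cells. The labels state neither the RNA that the probes target nor an input library, so that a change in a gene's RNA in the cell and a change in how much of it is pulled down cannot be told apart, and neither can fewer cells of a type and less RNA per cell.

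Pre-mRNA splicing removes introns in steps that these proteins carry out. The U1 particle, built around SNRNP70 and SNRPA on an Sm ring, pairs with the 5′ splice site, and LUC7 proteins assist it. SF1 binds the branch point, the U2AF1 and U2AF2 heterodimer reads the 3′ splice site, and the U2 particle with its SF3A and SF3B proteins then takes the branch point. The tri-snRNP joins, PRPF8 and the helicase SNRNP200 remodel the assembly, and hnRNPs bind along the transcript and repress or promote exons. Several of these genes, SF3B1, U2AF1, ZRSR2, PRPF8 and LUC7L2 among them, are recurrently mutated in myeloid malignancy. Many splicing factor genes control their own transcripts by retained introns or by exons that trigger decay.

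Total counts ran from 20548300 to 37970163 per library, with 21945 to 26083 genes detected. The table has 0 genes named HOTSCRAMBL, so the level of the targeted RNA is not analysed here. The labelled cell type was checked on myeloid markers, of which 12 of 12 were detected in every library with summed levels between 2854 and 3396 counts per 1000000 (CPM). The sum does not show single markers. Averaged over both editors, 4 of these 12 were called higher and 5 lower in HOTSCRAMBL than in AAVS1 (edgeR adjusted p under 0.05). That share was 75%, against 12.3% of all genes. Of 12 markers of other blood and epithelial cells, 2 to 4 were detected per library, at sums of 18.1 to 65.3 CPM. Libraries of different groups that share a labelled line were no more alike (median Pearson r 0.878 of log2 CPM over the genes tested) than those of different labelled lines (0.875), and 0.495% of all genes were called between the lines. Whether the libraries hold the lines as labelled was not tested. Summed mRNAs of 29 ribosomal protein genes moved with the groups, from between 7068 and 8559 CPM in the AAVS1 libraries to between 19961 and 30151 CPM in the HOTSCRAMBL libraries, and their part in the results below was not tested. Scaling factors computed without ribosomal protein and mitochondrial genes left 15 of 16 calls with KO and 16 of 16 with CBE.

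The genes as a group took 2.06% ± 0.0707 (SD, n = 2) of all counts in AAVS1 KO and 2.05% ± 0.0461 in AAVS1 CBE. They took 1.51% ± 0.118 in HOTSCRAMBL KO and 1.78% ± 0.0365 in HOTSCRAMBL CBE, so that both HOTSCRAMBL groups lay below both controls without overlap. This share is of raw totals and is weighted to the abundant genes. Scaled by library size alone, the median log2 fold change of all genes was negative too, at −0.17 with KO and −0.15 with CBE. Scaled by the trimmed mean of M values, the median of the 56 was −0.17 with KO and 0.13 with CBE. The share therefore does not show that the 56 as a set fell with CBE. Per length, as transcripts per 1000000 (TPM) over the union of exons, the mean level over the 8 libraries spanned a range of 264-fold around a median of 64.6 TPM. SRRM2, a scaffold protein of nuclear speckles, stood at 745 ± 233 TPM (SD, n = 8) and was the 8th most abundant of all genes in the table by CPM. SNRNP70 followed at 453 ± 183 TPM, LUC7L3 at 260 ± 65.0 TPM, SF1 at 222 ± 58.9 TPM and U2AF2 at 199 ± 69.0 TPM. These SDs hold the differences between groups, and neighbours in this order overlapped within 1 SD.

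At the low end stood U2AF1 at 2.82 ± 0.793 TPM (SD, n = 8), HNRNPUL2 at 6.81 ± 1.36 TPM, LUC7L2 at 10.8 ± 2.23 TPM, SNRPD3 at 13.4 ± 2.64 TPM and SF3B6 at 15.2 ± 3.24 TPM. The lowest 3 stood apart from each other by more than 1 SD, and the next ones did not. The value of U2AF1 (ENSG00000160201, chromosome 21, 43092956 to 43107570 in GRCh38) is uncertain. A second gene of nearly the same span on that chromosome (ENSG00000275895, 6484623 to 6499248) had 0 counts in all 8 libraries together, and the counting left out reads with more than 1 position. HNRNPUL2 and LUC7L2 share 44.3% and 21.8% of their exonic length with the read-through genes HNRNPUL2-BSCL2 and FMC1-LUC7L2, and reads that touched more than 1 gene were left out too. HNRNPA3 shares 53.6% with NFE2L2, and 74 genes of the table carry the name of HNRNPA1 as numbered copies, so the levels of these genes are uncertain in the same way.

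**Figure D1:**
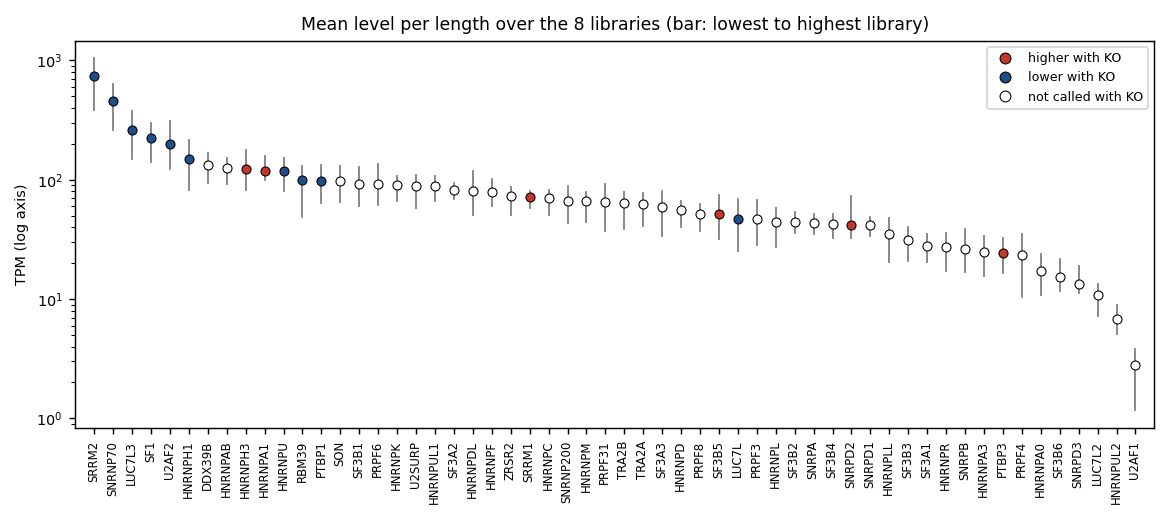
Mean level of each of the 56 genes in TPM on a log axis, in falling order, over all 8 libraries; grey bars run from the lowest to the highest library and colours give the call with KO. The 5 genes at the top, from SRRM2 at 745 TPM to U2AF2 at 199 TPM, were all lower in HOTSCRAMBL KO than in AAVS1 KO.

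Cas9 targeting of HOTSCRAMBL was compared first with its own control. Of the 56 genes, 16 passed the threshold (28.6%, edgeR quasi-likelihood test with Benjamini-Hochberg adjustment over 24057 genes, adjusted p under 0.05), 6 higher and 10 lower in HOTSCRAMBL KO than in AAVS1 KO. Over all genes tested the share called was 8.76% (4.51% higher and 4.25% lower), and over the 7548 genes between 17.9 and 983 CPM, the range that holds most of the 56, it was 21.1%. The share among the 56 was thus well above that of genes in general and nearer to that of genes in this range. Genes within the range were not matched further to the level of the 56, whose median was 155 CPM. Their median log2 fold change was −0.17 against −0.01 for all genes. All 16 moved the same way in both labelled lines, and in 15 of 16 the HOTSCRAMBL and control libraries did not overlap. The test itself favours such genes, and of the 40 genes not called 29 moved the same way and 24 did not overlap. In the level range 71.9% of genes moved the same way and 58.1% did not overlap.

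The genes that rose were HNRNPH3, PTBP3, HNRNPA1, SF3B5, SNRPD2 and SRRM1. Those that fell were HNRNPH1, HNRNPU, PTBP1, SF1, U2AF2, SNRNP70, LUC7L, LUC7L3, SRRM2 and RBM39. Scaling by library size in place of the trimmed mean of M values (TMM) moved the all-gene median to −0.17, and the split became 3 higher and 16 lower, so directions are relative to the TMM scaling, although none of the 16 changed sign. Leaving out 1 of the 4 libraries of the contrast left 5 calls without AAVS1 KO replicate 2, 6 without AAVS1 KO replicate 1, 6 without HOTSCRAMBL KO replicate 2 and 8 without HOTSCRAMBL KO replicate 1, with the lone library assumed to vary like the other groups. Without the term for the labelled line 9 calls remained, and in a fit of the 4 libraries alone 7 remained. HNRNPH1, HNRNPH3 and SNRNP70 were called under all 18 alternatives.

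Base editing gave a like number of calls with another balance. In HOTSCRAMBL CBE 16 genes passed (28.6%, against 8.83% of all genes, 4.56% higher and 4.27% lower, and 22.7% of genes in the same level range), 8 higher and 8 lower than in AAVS1 CBE. The median log2 fold change was 0.13, against −0.02 for all genes. All 16 moved the same way in both labelled lines, and none overlapped between the groups. Of the 40 genes not called, 30 moved the same way and 26 did not overlap. In the level range 74.1% of genes moved the same way and 61.6% did not overlap. HNRNPA1, HNRNPH3, PTBP3, HNRNPF, HNRNPK, SF3A1, SF3A2 and SNRPB rose. PTBP1, HNRNPLL, U2AF2, SNRNP70, LUC7L, PRPF3, PRPF31 and SRRM2 fell. With library size alone the split became 6 higher and 11 lower and the median −0.01. Leaving out 1 library left 6 calls without AAVS1 CBE replicate 1 or without HOTSCRAMBL CBE replicate 1, 8 without either replicate 2 of the contrast and 10 without either AAVS1 KO library. Without the term for the labelled line 9 calls remained, and in a fit of the 4 libraries alone 6 remained. HNRNPA1, HNRNPH3, PTBP3, U2AF2 and SNRNP70 were called under all 18 alternatives.

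**Figure D2:**
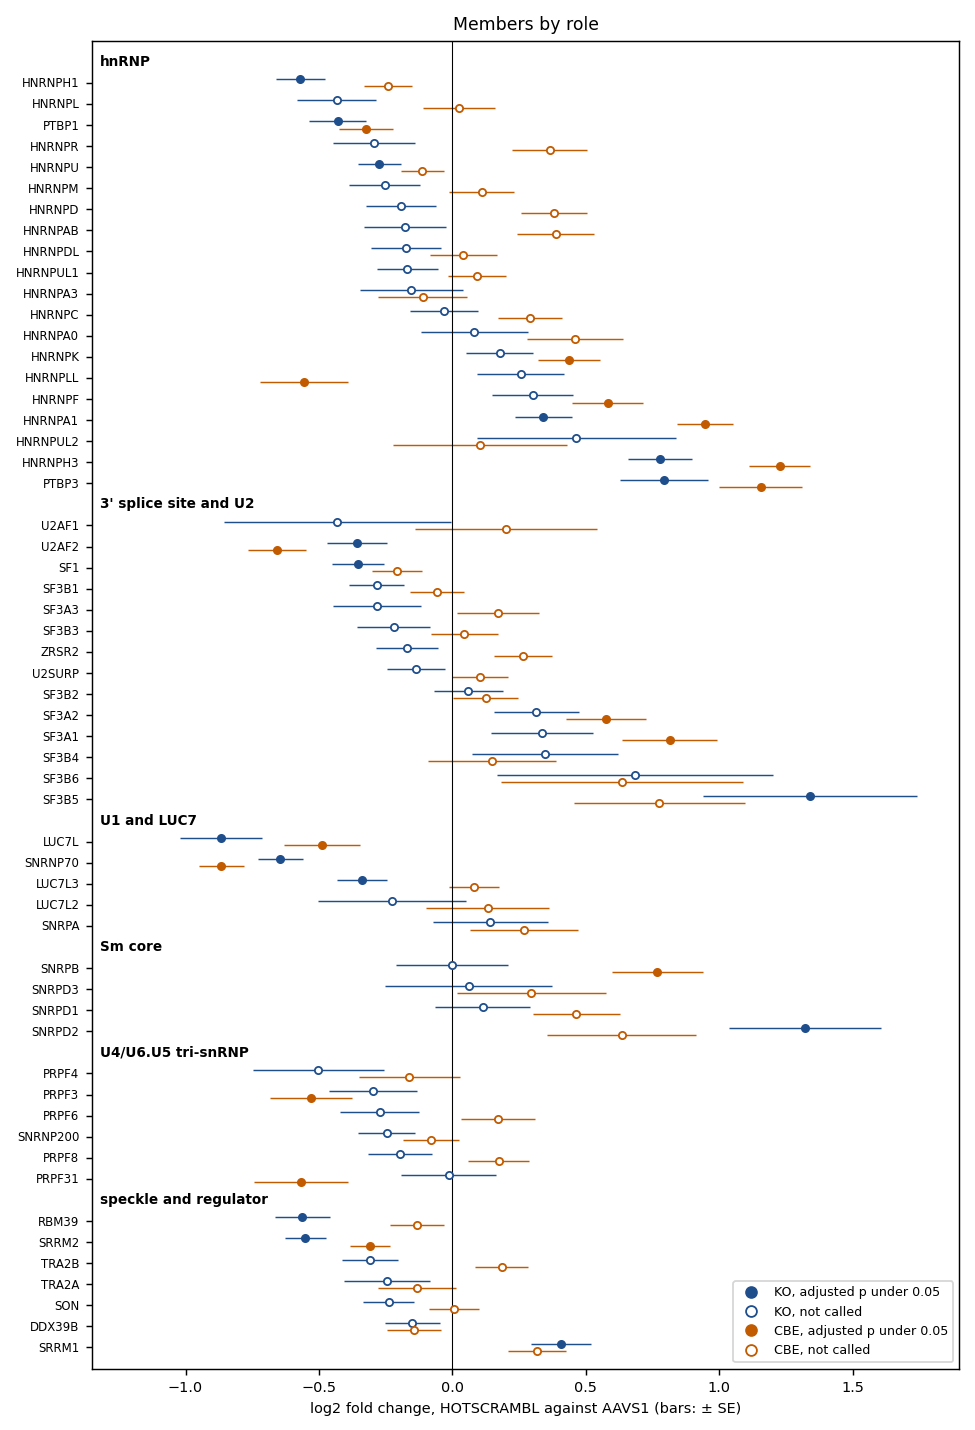
Log2 fold change of each of the 56 genes by role, HOTSCRAMBL against AAVS1, with KO in blue and CBE in orange; bars are ± SE and filled points passed an edgeR adjusted p of 0.05. PTBP3 and HNRNPH3 lie at the right among the hnRNPs with both editors, and SNRNP70 and LUC7L at the left among the U1 genes.

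Side by side, 3 genes were called higher with both editors (HNRNPA1, HNRNPH3, PTBP3), 5 lower with both (PTBP1, U2AF2, SNRNP70, LUC7L, SRRM2), 8 with KO alone, 8 with CBE alone and 32 with neither. No gene was called in opposite directions. A call with 1 editor alone is not a difference between editors, and HNRNPA1, called with both, was the 1 gene that passed a test of that difference. With CBE, SF3B5 had a log2 fold change of 0.78, SF1 −0.21, RBM39 −0.13 and HNRNPU −0.11. With KO, SF3A1 had 0.34, SF3A2 0.32, HNRNPK 0.18, PRPF3 −0.30 and PRPF31 −0.01. None of these passed in edgeR with the main settings. In the contrast averaged over both editors, 20 genes passed, 10 in each direction (35.7%, against 12.3% of all genes, 5.79% higher and 6.51% lower, and 30.1% in the level range); with library size alone these were 6 higher and 19 lower. Between the AAVS1 controls of the editors 0 genes passed with edgeR, where 2 of the 56 and 3.82% of all genes had an unadjusted p under 0.05, and 0% of all genes passed. Between the labelled lines 0 passed with edgeR, where 11 of the 56 and 9.19% of all genes had an unadjusted p under 0.05 and 0.495% of all genes were called; DESeq2 called 6 and limma-voom 3.

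Among the hnRNPs, 3 of 20 rose and 3 fell with KO, and 5 rose and 2 fell with CBE. HNRNPH3 (ENSG00000096746, chromosome 10, 68331174 to 68343193), a small member of the family that binds G-rich sequence, stood at 224 and 213 CPM in the AAVS1 KO libraries labelled MOLM13 and OCI-AML4 and at 375 and 375 CPM in HOTSCRAMBL KO. In AAVS1 CBE it stood at 186 and 242 CPM and in HOTSCRAMBL CBE at 498 and 497 CPM. Every HOTSCRAMBL library lay above every control library. The rise was 1.71-fold with KO (log2 0.78, SE 0.12, edgeR adjusted p 5.03e-05) and 2.34-fold with CBE (log2 1.23, SE 0.115, edgeR adjusted p 2.5e-08).

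HNRNPH1, its larger and more abundant relative, went the other way with KO. It stood at 825 and 687 CPM in AAVS1 KO and at 539 and 477 CPM in HOTSCRAMBL KO, a fall to 0.674-fold (log2 −0.57, SE 0.0914, edgeR adjusted p 7.95e-05). In AAVS1 CBE it stood at 793 and 696 CPM and in HOTSCRAMBL CBE at 686 and 576 CPM, a ratio of 0.846 that did not pass (edgeR adjusted p 0.0981), although DESeq2 and limma-voom called it. HNRNPF, the third of this set, rose with CBE from 116 and 117 to 175 and 174 CPM (1.5-fold, edgeR adjusted p 0.00442) and had a log2 fold change of 0.30 with KO that did not pass in edgeR and did in DESeq2. Its call with CBE was lost without any 1 library of the contrast, with log2 fold changes between 0.44 and 0.61 over all alternatives. Within a library a ratio of 2 genes per length does not depend on the scaling between libraries. Such ratios were formed for 8 pairs of related members, chosen after the values were seen, and carry no test. HNRNPH3 per HNRNPH1 was 0.48 and 0.547 in AAVS1 KO, 0.413 and 0.613 in AAVS1 CBE, 1.23 and 1.39 in HOTSCRAMBL KO and 1.28 and 1.52 in HOTSCRAMBL CBE. HNRNPH1 thus gave the higher level per length in the 4 control libraries and HNRNPH3 in the 4 HOTSCRAMBL libraries. That crossing depends on the annotated exonic lengths, 9480 bases for HNRNPH1 and 5375 for HNRNPH3. In CPM HNRNPH1 stood above HNRNPH3 in every library.

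PTBP1 and PTBP3, which encode polypyrimidine tract-binding repressors of exon inclusion, also parted. PTBP3 stood at 66.6 and 81.2 CPM in AAVS1 KO, 121 and 135 CPM in HOTSCRAMBL KO, 63.9 and 58.9 CPM in AAVS1 CBE and 134 and 140 CPM in HOTSCRAMBL CBE. All HOTSCRAMBL libraries exceeded all controls, by 1.73-fold with KO (log2 0.79, SE 0.164, edgeR adjusted p 0.00176) and 2.23-fold with CBE (log2 1.16, SE 0.156, edgeR adjusted p 8.23e-06). Its call with KO was lost without AAVS1 KO replicate 1 or without HOTSCRAMBL KO replicate 2, and its log2 fold change lay between 0.63 and 0.93 over all alternatives. PTBP1 stood at 352 and 391 CPM in AAVS1 KO and 260 and 292 CPM in HOTSCRAMBL KO (0.743-fold, edgeR adjusted p 0.00853), and at 389 and 431 CPM in AAVS1 CBE and 307 and 349 CPM in HOTSCRAMBL CBE (0.799-fold, edgeR adjusted p 0.0428). The call of PTBP1 with KO was lost when any library of its contrast was left out. Its call with CBE was lost without any 1 of the 8 libraries, and under 12 of 18 alternatives in all. Its log2 fold changes lay between −0.59 and −0.40 with KO and between −0.46 and −0.31 with CBE over all alternatives. The ratio of PTBP3 per PTBP1 was 0.181 ± 0.0117 (SD, n = 2) in AAVS1 KO and 0.137 ± 0.0181 in AAVS1 CBE, against 0.423 ± 0.000622 in HOTSCRAMBL KO and 0.383 ± 0.023 in HOTSCRAMBL CBE. It was 2.33 times its control with KO and 2.79 times with CBE. Of the other pairs, HNRNPF per HNRNPH1 was 1.825 and 1.77 times its control with KO and CBE, HNRNPA1 per HNRNPA3 1.4 and 2.11 times, and HNRNPLL per HNRNPL 1.63 and 0.671 times. TRA2A per TRA2B was 1.045 and 0.808 times its control. SNRPD2 per SNRPD1 was 2.28 times its control with KO, and with CBE it was 1.1 times with overlap of the libraries.

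**Figure D3:**
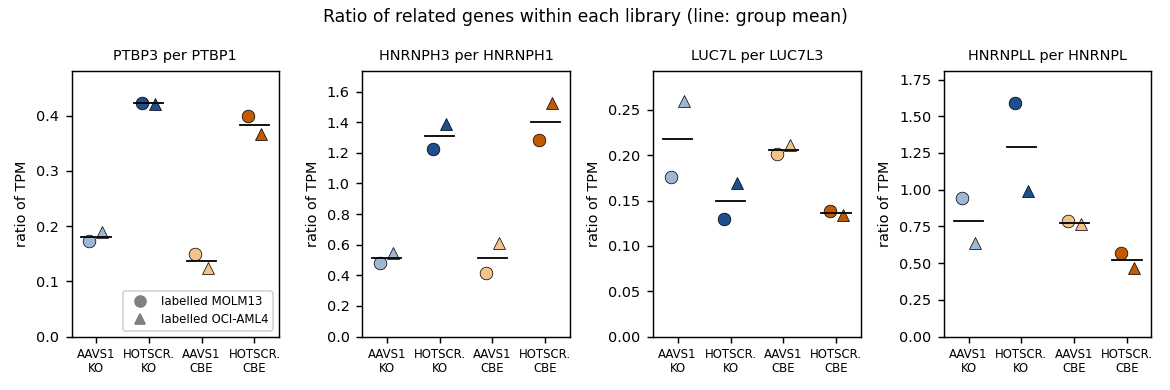
Ratio of TPM of 4 pairs of related genes in each library, with circles for libraries labelled MOLM13, triangles for OCI-AML4 and lines for group means (HOTSCR. stands for HOTSCRAMBL). PTBP3 per PTBP1 and HNRNPH3 per HNRNPH1 lie above the controls in all 4 HOTSCRAMBL libraries, and HNRNPLL per HNRNPL lies above its control with KO and below it with CBE.

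HNRNPA1, an abundant repressor of splice sites, was the 1 gene of the 56 that passed the test of a difference between the editors. It stood at 327 and 297 CPM in AAVS1 KO, 369 and 421 CPM in HOTSCRAMBL KO, 282 and 293 CPM in AAVS1 CBE and 560 and 550 CPM in HOTSCRAMBL CBE. Both rises passed, 1.27-fold with KO (edgeR adjusted p 0.0483) and 1.93-fold with CBE (edgeR adjusted p 3.58e-07). The difference of both effects, KO minus CBE, was −0.61 on the log2 scale (SE 0.15, edgeR adjusted p 0.0216). Of all genes 3.19% passed that test, and of those in the level range 8.03%, against 1 of 56 here (1.79%). The median difference of the 56 was −0.26, and 45 of 56 were negative. That median was −0.01 for all genes and −0.08 for protein-coding genes in the level range. The shift of the 56 as a set was not tested. An unadjusted p under 0.05 was found for 17 of the 56, against 14.1% of all genes. DESeq2 called 8 of the 56 in this test and limma-voom 7. The call of the difference for HNRNPA1 (ENSG00000135486, chromosome 12, 54280193 to 54287088) was lost without any 1 library except HOTSCRAMBL KO replicate 2, with values between −0.73 and −0.49, and its call with KO was lost without any 1 of the 8 libraries, with values between 0.18 and 0.46. HNRNPA0 had log2 fold changes of 0.08 and 0.46 with KO and CBE, and HNRNPA3 of −0.15 and −0.11, none of which passed.

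HNRNPLL, a regulator of alternative splicing in lymphocytes, came closest to differing between editors beside HNRNPA1 (KO minus CBE 0.81, SE 0.232, edgeR adjusted p 0.0534). It stood at 113 and 95.0 CPM in AAVS1 KO and 138 and 111 CPM in HOTSCRAMBL KO, and at 94.1 and 108 CPM in AAVS1 CBE and 73.3 and 63.4 CPM in HOTSCRAMBL CBE. The fall with CBE passed (0.68-fold, edgeR adjusted p 0.032) and the value with KO did not (1.19-fold, edgeR adjusted p 0.416). Its paralogue HNRNPL had log2 fold changes of −0.43 and 0.03 with KO and CBE, neither called in edgeR (adjusted p 0.0686 with KO); DESeq2, the older edgeR dispersion and scaling by library size called the value with KO. The call of HNRNPLL with CBE was lost without any 1 library except AAVS1 CBE replicate 1, with log2 fold changes between −0.79 and −0.34.

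HNRNPK, a KH-domain protein, rose 1.35-fold with CBE (edgeR adjusted p 0.0156). HNRNPU, a nuclear matrix protein, fell to 0.827-fold with KO (edgeR adjusted p 0.0316), and its paralogues HNRNPUL1 and HNRNPUL2 were not called. HNRNPU shares 19.0% of its exonic length with other genes, chiefly COX20. The call of HNRNPK was lost without either AAVS1 KO library, AAVS1 CBE replicate 1 or either HOTSCRAMBL CBE library (log2 fold changes from 0.27 to 0.61), and that of HNRNPU without any 1 library other than those of HOTSCRAMBL CBE (from −0.43 to −0.24). HNRNPD, HNRNPDL and HNRNPAB, a set of related AU-rich element binders, were called with neither editor in edgeR, with log2 fold changes of −0.19, −0.17 and −0.18 with KO and of 0.38, 0.04 and 0.39 with CBE. HNRNPD with CBE (edgeR adjusted p 0.0516) was called by DESeq2, by limma-voom and at a minimum count of 50. HNRNPC, HNRNPM and HNRNPR were also called with neither in edgeR, whereas DESeq2 called HNRNPR with CBE and edgeR without TMM called HNRNPM with KO.

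**Figure D4:**
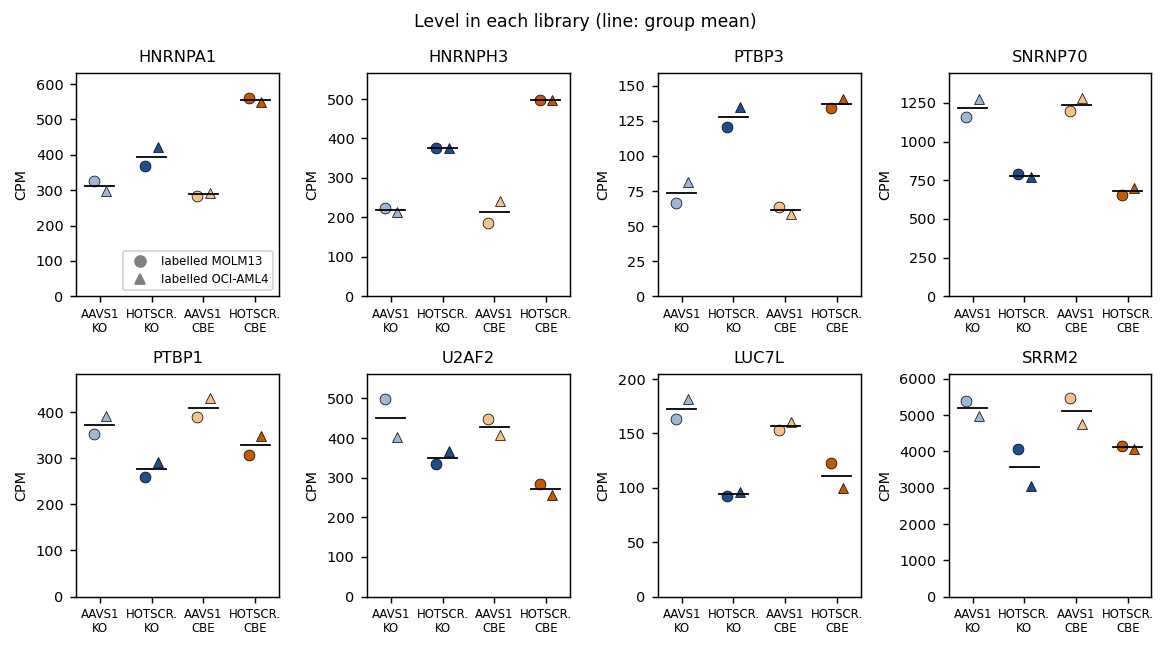
Level in CPM of the 8 genes called with both editors, in each library, with circles for libraries labelled MOLM13, triangles for OCI-AML4 and lines for group means; axes start at 0 and HOTSCR. stands for HOTSCRAMBL. HNRNPA1, HNRNPH3 and PTBP3 are higher and SNRNP70, PTBP1, U2AF2, LUC7L and SRRM2 lower in HOTSCRAMBL than in AAVS1 libraries of the same editor.

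Of the 14 genes of 3′ splice site recognition and U2, SF3B5 rose and SF1 and U2AF2 fell with KO, and SF3A1 and SF3A2 rose and U2AF2 fell with CBE. U2AF2 (ENSG00000063244, chromosome 19, 55654146 to 55674716), the subunit that binds the polypyrimidine tract, stood at 499 and 402 CPM in AAVS1 KO and 334 and 366 CPM in HOTSCRAMBL KO. In AAVS1 CBE it stood at 448 and 407 CPM and in HOTSCRAMBL CBE at 285 and 257 CPM. The groups did not overlap with either editor. The fall was to 0.781-fold with KO (edgeR adjusted p 0.0445) and to 0.634-fold with CBE (log2 −0.66, SE 0.11, edgeR adjusted p 1.61e-04). The call with KO was lost under 11 of 18 alternatives, and of the 4 libraries of the contrast it was kept only without HOTSCRAMBL KO replicate 2. Its log2 fold change with KO lay between −0.54 and −0.20 over these alternatives.

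SF3A1, which encodes a scaffold subunit of the U2 particle, stood at 66.9 and 60.0 CPM in AAVS1 CBE and 110 and 114 CPM in HOTSCRAMBL CBE (1.76-fold, log2 0.81, SE 0.177, edgeR adjusted p 0.00276). With KO its libraries overlapped, at 89.1 and 56 CPM in the control and 87.1 and 94.6 CPM in HOTSCRAMBL KO. SF3A2 rose 1.49-fold with CBE (edgeR adjusted p 0.0128), and SF3A3 was called with neither editor. The call of SF3A1 was lost without any 1 library of the contrast (log2 fold changes from 0.68 to 0.96 over all alternatives), and that of SF3A2 without AAVS1 CBE replicate 1 or HOTSCRAMBL CBE replicate 1 (from 0.40 to 0.74). SF3B5, a single-exon gene for a small SF3B subunit, rose with KO from 8.78 and 10.0 to 20.2 and 26.8 CPM (2.53-fold, edgeR adjusted p 0.0346), a call lost without any 1 of the 8 libraries, with log2 fold changes from 0.92 to 1.71. SF1 fell with KO from 716 and 612 to 519 and 518 CPM (0.783-fold, edgeR adjusted p 0.0182), a call lost without any 1 library of the contrast or AAVS1 CBE replicate 1, with log2 fold changes from −0.51 to −0.25.

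SF3B1, U2AF1 and ZRSR2, which are recurrently mutated in myeloid malignancy, were called with neither editor in edgeR. DESeq2, limma-voom and edgeR without TMM called SF3B1 with KO, and DESeq2 called ZRSR2 with CBE. SF3B1, the branch point-contacting subunit, had log2 fold changes of −0.28 (SE 0.104, edgeR adjusted p 0.0984) with KO and −0.06 (SE 0.101) with CBE. U2AF1 had −0.43 (SE 0.424) and 0.20 (SE 0.341). ZRSR2, which recognises the 3′ splice site of minor introns, had −0.17 (SE 0.116) and 0.26 (SE 0.109). Of the recurrently mutated genes of other classes, PRPF8 had −0.20 (SE 0.121) and 0.17 (SE 0.115), and LUC7L2 had −0.23 (SE 0.277) and 0.13 (SE 0.23).

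SNRNP70 (ENSG00000104852, chromosome 19, 49085419 to 49108605), the U1 70K protein, fell with both editors. It stood at 1160 and 1275 CPM in AAVS1 KO, 787 and 768 CPM in HOTSCRAMBL KO, 1196 and 1280 CPM in AAVS1 CBE and 657 and 701 CPM in HOTSCRAMBL CBE. No HOTSCRAMBL library reached the lowest control library. The level was 0.64-fold with KO (log2 −0.64, SE 0.0853, edgeR adjusted p 4.83e-06) and 0.549-fold with CBE (log2 −0.87, SE 0.0846, edgeR adjusted p 4.06e-08). SNRPA, which encodes another U1 protein, was called with neither editor.

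Of the LUC7 genes, LUC7L fell with both editors and LUC7L3 with KO; differences among the genes were not tested. LUC7L stood at 163 and 182 CPM in AAVS1 KO and 92.6 and 96.3 CPM in HOTSCRAMBL KO (0.548-fold, log2 −0.87, SE 0.153, edgeR adjusted p 2.93e-04), a call lost without AAVS1 KO replicate 2, with values from −1.03 to −0.74. It stood at 153 and 161 CPM in AAVS1 CBE and 122 and 99.4 CPM in HOTSCRAMBL CBE (0.713-fold, edgeR adjusted p 0.0275), a call lost without any 1 library of the contrast or of AAVS1 KO, with log2 fold changes from −0.71 to −0.31. LUC7L3 fell with KO (0.791-fold, edgeR adjusted p 0.0209), and it was the 1 called gene whose libraries overlapped, at 1217 and 921 CPM in AAVS1 KO against 940 and 748 CPM in HOTSCRAMBL KO. That call was lost without any 1 library of the contrast, with log2 fold changes from −0.50 to −0.22. With CBE LUC7L3 had a log2 fold change of 0.08. The ratio of LUC7L per LUC7L3 was 0.686 of its control with KO and 0.663 with CBE, without overlap of the libraries and without a test. LUC7L2 was called with neither, at the log2 fold changes given above.

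Of the 4 Sm ring genes, SNRPD2 rose with KO and SNRPB with CBE. SNRPD2 (ENSG00000125743, chromosome 19, 45687460 to 45692569) stood at 19.4 and 20.8 CPM in AAVS1 KO and at 35.8 and 64.7 CPM in HOTSCRAMBL KO (2.5-fold, log2 1.32, SE 0.284, edgeR adjusted p 0.00259). In AAVS1 CBE it stood at 20.3 and 19.9 CPM and in HOTSCRAMBL CBE at 29.3 and 33.4 CPM (1.55-fold, edgeR adjusted p 0.189). The 4 control libraries lay within a narrow range and the 4 HOTSCRAMBL libraries above it, and the call with KO was lost without either AAVS1 KO library or HOTSCRAMBL KO replicate 2, with log2 fold changes from 0.87 to 1.63. SNRPB stood at 52.2 and 66.2 CPM in AAVS1 CBE and 97.1 and 103 CPM in HOTSCRAMBL CBE (1.7-fold, log2 0.77, SE 0.169, edgeR adjusted p 0.00307), and with KO its ratio was 0.999. Without AAVS1 CBE replicate 1 or HOTSCRAMBL CBE replicate 1 that call was lost, with log2 fold changes from 0.63 to 0.87. SNRPD1 had log2 fold changes of 0.11 and 0.46 with KO and CBE and SNRPD3 of 0.06 and 0.30, none of which passed in edgeR; SNRPD1 with CBE (edgeR adjusted p 0.0813) was called by DESeq2 and at a minimum count of 50.

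Among the 6 tri-snRNP genes 0 passed with KO in edgeR, where 1 had an unadjusted p under 0.05 (20.1% of all genes did), although all 6 had negative log2 fold changes. DESeq2 called PRPF4 there, and edgeR without TMM called SNRNP200. With CBE PRPF3, a U4/U6 protein, fell to 0.693-fold (edgeR adjusted p 0.0278) and PRPF31, which bridges U4/U6 and U5, to 0.675-fold (edgeR adjusted p 0.0412). PRPF31 stood at 79.6 and 96.0 CPM in AAVS1 CBE and 53.5 and 65.6 CPM in HOTSCRAMBL CBE, and shares 31.3% of its exonic length with other genes, chiefly its antisense RNA; strand was not used, and reads on the shared bases were left out of both genes. The call of PRPF31 was lost without any 1 of the 8 libraries (log2 fold changes from −0.71 to −0.43), and that of PRPF3 without any 1 except HOTSCRAMBL CBE replicate 1 (from −0.82 to −0.31).

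Of the 7 speckle and regulator genes, SRRM1 rose and SRRM2 and RBM39 fell with KO, and SRRM2 fell with CBE. SRRM2 (ENSG00000167978, chromosome 16, 2752626 to 2772538) stood at 5406 and 4968 CPM in AAVS1 KO and 4074 and 3056 CPM in HOTSCRAMBL KO (0.683-fold, log2 −0.55, SE 0.0763, edgeR adjusted p 1.06e-05). It stood at 5470 and 4761 CPM in AAVS1 CBE and 4158 and 4078 CPM in HOTSCRAMBL CBE (0.808-fold, edgeR adjusted p 0.00851). The groups did not overlap, but limma-voom called neither fall. The call with CBE was also lost without either AAVS1 CBE library or HOTSCRAMBL CBE replicate 1, with log2 fold changes from −0.45 to −0.20. SRRM1, a coactivator that partners SRRM2, stood at 245 and 223 CPM in AAVS1 KO and 339 and 284 CPM in HOTSCRAMBL KO (1.33-fold, log2 0.41, SE 0.112, edgeR adjusted p 0.0205), a call lost without any 1 library of the contrast, with log2 fold changes from 0.25 to 0.46. In AAVS1 CBE it stood at 269 and 236 CPM and in HOTSCRAMBL CBE at 339 and 290 CPM (1.25-fold), which did not pass in edgeR (adjusted p 0.0675) but did in DESeq2, in limma-voom and at a minimum count of 50. RBM39, a U2AF-related coactivator, fell to 0.677-fold with KO (edgeR adjusted p 5.43e-04), lost without AAVS1 KO replicate 2 or HOTSCRAMBL KO replicate 2, with log2 fold changes from −0.74 to −0.41. SON, the helicase DDX39B and the exon-inclusion factors TRA2A and TRA2B were called with neither editor in edgeR. With KO, limma-voom and edgeR without TMM called SON and TRA2B, and DESeq2 called TRA2B. TRA2B had −0.31 with KO (SE 0.105, edgeR adjusted p 0.0669) and 0.19 with CBE, and TRA2A had −0.25 and −0.13.

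The annotated gene models of the members were set beside these changes. In GENCODE v29, 40 of 56 members (71.4%) have at least 1 transcript annotated as retained intron, against 56.1% of the 13682 protein-coding genes tested. Among the 7052 protein-coding genes of the level range, 4592 have one, a share nearer to that of the members. Reads over such an intron count toward the gene, since the counting used the union of exons. With KO, 2 of these 40 rose and all 10 that fell were among them, while 4 of the 16 members without such a transcript (HNRNPH3, PTBP3, SF3B5 and SNRPD2) rose and 0 fell. SF3B5 and HNRNPA0, both among the 16, are single-exon genes, so they could not have such a transcript. SF3B5 and SNRPD2 are also short, at 690 and 1441 exonic bases. With CBE 4 of the 40 rose and 7 fell, and of the 16 without one 4 rose and 1 (PRPF3) fell. Protein-coding genes of the level range divided in the same direction. With KO 8.32% of those with such a transcript were called higher and 13.4% lower, against 11% and 8.21% of those without, and with CBE 10.5% and 12.4% against 14.7% and 7.24%. This division was chosen after the values were seen, and it carries no test.

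Across the 56 genes the rank correlation of the number of retained-intron transcripts with the log2 fold change was −0.45 with KO and −0.40 with CBE. Over the 7052 protein-coding genes of the same level range it was −0.13 and −0.14. The genes share their libraries and are not independent, and the number of all annotated transcripts gave −0.44 and −0.37, exonic length −0.39 and −0.21 and level per length −0.34 and −0.33, so these properties cannot be told apart here. HNRNPH1, with 16 such transcripts, and SRRM2, with 13, fell with KO, and RBM39 with 16 and HNRNPU with 10 did so as well. PRPF8 with 10 and HNRNPL, U2SURP and TRA2B with 8 each were not called with KO in edgeR. HNRNPA1 with 3 and SRRM1 with 5 rose with KO. With CBE SRRM2 fell, and HNRNPH1, RBM39 and HNRNPU were not called in edgeR.

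**Figure D5:**
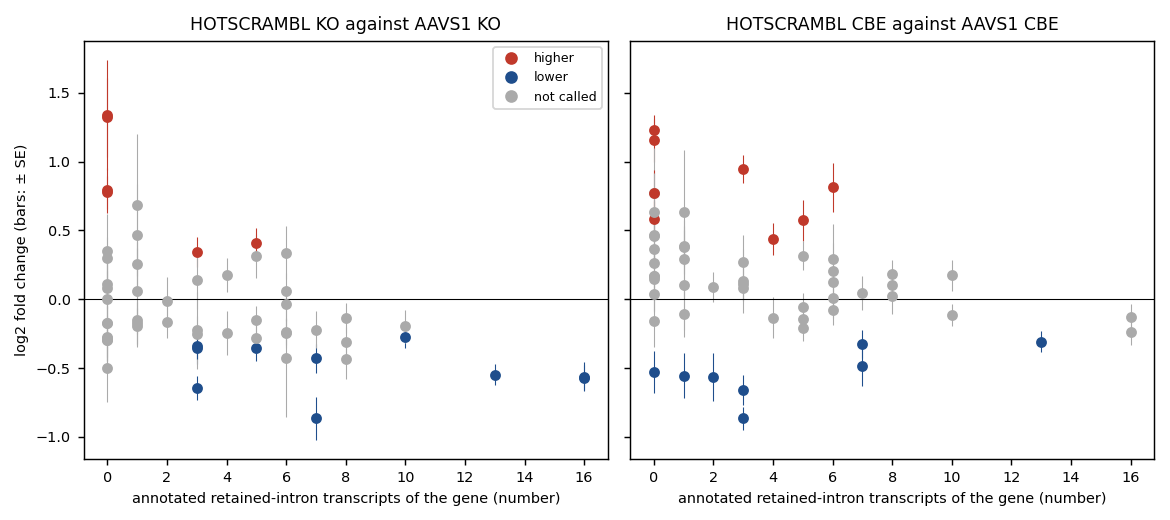
Log2 fold change (± SE) of the 56 genes against the number of their transcripts annotated as retained intron in GENCODE v29, with KO at left and CBE at right; red genes were called higher and blue genes lower. All 10 genes that fell with KO have at least 1 such transcript, and 4 of the 6 that rose have none. SF3B5, 1 of those 4, is a single-exon gene.

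Promoter sequence was described as well, after the values were seen. The letters CCGGAAG, the core recognised by ETS-family transcription factors, were searched on both strands (CTTCCGG on the other) in the 100 bases before the RefSeq start (GRCh38.p14). Entries were matched for 50 of 56 members. The letters were present in 14 of 50 (28%), against 5.95% of all 27305 promoters of that length and 8.07% of 15842 protein-coding ones. Neither background was matched to the level of the members, so the share among genes of like level is not known here. They were about as frequent among members called with an editor (6 of 21) as among those called with neither (8 of 29). A match describes the letters only. The windows of HNRNPLL, U2AF2 and SNRPD2 lie wholly inside the span of the counted gene. The 6 called members that hold them are printed 5′ to 3′ on the strand of the gene, with the match in capitals, to show where it lies in genes that rose (SF3A1, SF3A2, SNRPB, SNRPD2) and fell (HNRNPLL, U2AF2).
SF3A1, chr22:30356895-30356994, minus strand: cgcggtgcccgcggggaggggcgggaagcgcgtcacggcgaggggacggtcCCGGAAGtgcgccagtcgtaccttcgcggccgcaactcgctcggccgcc
SF3A2, chr19:2236724-2236823, plus strand: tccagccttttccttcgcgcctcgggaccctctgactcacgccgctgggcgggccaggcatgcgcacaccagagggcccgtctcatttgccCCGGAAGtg
SNRPB, chr20:2470790-2470889, minus strand: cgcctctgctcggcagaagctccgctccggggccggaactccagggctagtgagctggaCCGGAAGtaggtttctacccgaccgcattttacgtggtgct
SNRPD2, chr19:45692317-45692416, minus strand: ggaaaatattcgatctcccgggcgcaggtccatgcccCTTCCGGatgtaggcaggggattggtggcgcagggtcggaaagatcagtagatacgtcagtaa
HNRNPLL, chr2:38602929-38603028, minus strand: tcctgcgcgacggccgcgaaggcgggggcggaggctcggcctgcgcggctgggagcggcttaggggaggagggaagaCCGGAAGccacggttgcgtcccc
U2AF2, chr19:55654935-55655034, plus strand: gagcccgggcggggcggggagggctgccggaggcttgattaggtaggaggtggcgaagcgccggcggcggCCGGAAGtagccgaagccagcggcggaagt

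The same tests were read for related genes outside the list. Of 74 other spliceosome genes, 4 rose and 11 fell with KO (20.3%), and 5 rose and 7 fell with CBE (16.2%). The shares called with KO and CBE were 8.76% and 8.83% over all genes and 21.1% and 22.7% over the level range. The splicing-coupled genes SAP18 (log2 1.87, edgeR adjusted p 4.4e-07), EIF4A3 (log2 1.28) and PRPF19 (log2 0.84) rose with KO and RBM25 (log2 −1.04, edgeR adjusted p 2.1e-07), PRPF38B (log2 −0.83) and ACIN1 (log2 −0.46) fell. With CBE LSM4 (log2 0.89), PRPF19 (log2 0.89) and RBMX (log2 0.47) rose and ACIN1 (log2 −0.51), PRPF38B (log2 −0.60) and SART3 (log2 −0.72) fell. Of 38 other RNA-binding splicing regulators, 2 rose and 8 fell with KO (26.3%), and 7 rose and 3 fell with CBE (26.3%). Among them YBX1 rose (log2 1.24 with KO and 1.07 with CBE), PCBP1 rose (log2 1.04 and 0.82), and HNRNPA2B1, an hnRNP outside the list of 56, fell (log2 −0.57 and −0.33). Of the 12 SR protein genes, which encode counterparts of the hnRNPs, 1 rose and 3 fell with KO (33.3%) and 2 rose and 1 fell with CBE (25%).

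An interaction term asked if targeting HOTSCRAMBL acted differently in the libraries labelled MOLM13 and OCI-AML4. Of the 56 genes 0 passed in edgeR, where 1 (U2SURP) had an unadjusted p under 0.05, and over all genes 0 passed and 985 had an unadjusted p under 0.05. With 1 library per line and group such a test has little to rest on.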

How the data were processed

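The authors deposited 1 table of raw counts per gene, as whole numbers. Per the file headers, the counts came from featureCounts 2.0.6 with the Ensembl 112 annotation of GRCh38, over the union of exons, without strand, with both reads of a pair counted separately, and without reads that fell at several positions or on several genes. The aligner is not given in the sources used here. Between 71.8% and 74.9% of counts from 1 to 20 were even. Reads carry no molecular identifiers. All 8 columns were used, and 0 were left over. Groups came from the sample titles.

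The test was that of edgeR 4.0.16 under R 4.3.3 (robust quasi-likelihood F-test with its newer dispersion estimate, TMM, filterByExpr at a minimum count of 10, leaving 24057 genes), with 4 group terms and 1 line term, so 3 residual degrees of freedom. Benjamini-Hochberg adjustment ran over all genes, at a threshold of 0.05. SEs follow from the F statistic. CPM used the TMM library sizes, and TPM the exonic length. The line term pairs replicates because the labels give the same line, and same-numbered libraries deviated together with r from 0.00851 to 0.0245 over all genes. Replicates of a group are labelled as different lines, and p-values measure the spread between these libraries, whatever its source. The script was tested on simulated data. DESeq2 1.42.0, limma-voom (limma 3.58.1), other scalings and filters, a model without the line term, the 4 libraries of a contrast alone and the omission of each library were alternatives. Transcript types came from GENCODE v29 of the same build, which is not the annotation used for counting, and promoters from RefSeq (GRCh38.p14).

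Values in every library are given for the 4 called genes of smallest p in each direction per editor and for some further members. The sets of paralogues, 5 genes recurrently mutated in myeloid malignancy, and the 5 highest and 5 lowest genes per length were named whatever their values. Members and lists were chosen with earlier results of these data known. The ratios of paralogues, the retained-intron split and the promoter search were added after the values were seen.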

Additional observations from a re-analysis of the deposited data

Results flagged for a closer look

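The response of HNRNPA1 differed between the editors, which is the reason it is listed. Its effect of HOTSCRAMBL KO minus its effect of HOTSCRAMBL CBE was −0.61 on the log2 scale (edgeR adjusted p 0.0216), with both effects positive. The difference was lost in 8 of 17 alternatives, with values between −0.73 and −0.49.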

How the results depend on the processing

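No called gene changed sign under any alternative with either editor. With KO 3 of 16 and with CBE 5 of 16 calls passed under all 18 alternatives, and 8 uncalled genes per editor passed under at least 1. Without the replicate block 9 genes were called with KO, 9 with CBE and 0 for the difference between editors. In the 4 libraries of a contrast alone 7 were called with KO and 6 with CBE. For the difference, where 1 gene was called, DESeq2 size factors in edgeR, scaling without ribosomal protein and mitochondrial genes, no filter and a minimum count of 50 each gave 2, the older edgeR dispersion (chosen after seeing the data) 3, limma-voom 7 and DESeq2 8. Between the labelled lines DESeq2 called 6, limma-voom 3 and the older dispersion 3, where edgeR called 0.

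With 1 library left out, calls ran from 5 to 13 with KO, 6 to 12 with CBE, 15 to 18 for the average and 0 to 1 for the difference. The median log2 fold change of the 56 genes then ran from −0.21 to −0.16 with KO, 0.081 to 0.146 with CBE, −0.061 to −0.013 for the average and −0.30 to −0.21 for the difference. With library size alone the medians were −0.33 with KO, −0.00985 with CBE, where TMM gave 0.13, and −0.20 for the average; a minimum count of 50 gave −0.033 for the average. The cause of these shifts was not tested. Low counts limit SF3B6, SF3B5, U2AF1 and HNRNPUL2, whose SEs are the widest.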
